A study of Mus musculus with 6 samples.

Results

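The Dlx and Msx genes encode homeodomain transcription factors of the NKL class of homeobox genes. The 8 genes described here, Dlx1 to Dlx6, Msx1 and Msx2, were taken by gene symbol from count tables that list 24453 symbols, and each of the 8 was found. The 6 libraries were made from newborn (postnatal day 0) mouse back skin. Interfollicular epidermal cells, the cells of the epidermis between the hair follicles, were isolated by flow cytometry with the gates EpCAM(+) and Sca1(+), and with α6-integrin(high). The control group has 3 libraries and genotype "Control". The Eed cKO group has 3 libraries with genotype "Eed-/-", and the labels name neither the Cre line nor the strain. The labels do not say whether libraries of a group came from separate animals, so p-values measure only the spread between these libraries.

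Mouse Dlx genes lie in pairs whose members are transcribed towards each other, and pairs are known to share enhancers. Dlx proteins mostly activate transcription, while Msx proteins mostly repress it, and both bind a core site with the letters TAATTA. Dlx3 is the paralog best known in skin, where it acts in epidermal differentiation and in the hair follicle. Dlx1, Dlx2, Dlx5 and Dlx6 are best known from forebrain interneurons, the jaws, the limbs and bone, and Msx1 and Msx2 from teeth, skull and limb. Eed belongs to the core of PRC2, the Polycomb complex that places a repressive methyl mark on histone H3, often at CpG-rich promoters of developmental regulators. The comparison of Eed cKO with control asks what happens to each gene's transcripts when Eed is removed in these cells.

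Promoters of 2 of the genes are shown, picked for their outcomes below: Dlx2 rose in Eed cKO and Msx1 had no count in any library. Each is the 250 bases before the RefSeq start in GRCm38.p6, printed 5′ to 3′ on the gene's strand, with each CG dinucleotide in capitals. The Dlx2 window is chr2:71546755-71547004, minus strand, and the Msx1 window is chr5:37824586-37824835, minus strand. Neither overlaps an annotated exon.
Dlx2: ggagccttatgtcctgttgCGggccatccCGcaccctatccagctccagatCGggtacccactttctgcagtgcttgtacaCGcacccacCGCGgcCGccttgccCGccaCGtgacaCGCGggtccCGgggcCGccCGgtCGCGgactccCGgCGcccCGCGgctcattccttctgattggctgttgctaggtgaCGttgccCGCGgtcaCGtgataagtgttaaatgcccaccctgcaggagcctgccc
Msx1: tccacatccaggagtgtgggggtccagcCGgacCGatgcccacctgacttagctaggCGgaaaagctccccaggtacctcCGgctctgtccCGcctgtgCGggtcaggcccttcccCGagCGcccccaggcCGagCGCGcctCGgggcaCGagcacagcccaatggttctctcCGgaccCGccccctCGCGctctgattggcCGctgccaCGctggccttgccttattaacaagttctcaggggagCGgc
The Dlx2 window holds 24 CG dinucleotides and the Msx1 window 20, against a median of 6 over the 32841 RefSeq promoters of the same length. As many as in Dlx2 were found in 11.98% of all promoters, and as many as in Msx1 in 17.9%. RefSeq promoters were matched for 4 of the 8 genes, and the other two matched windows held 22 CG (Dlx1, a count reached by 14.8% of promoters) and 16 CG (Msx2, 25.4%). Both of those windows lie wholly within exons annotated by GENCODE, so they are not upstream of every annotated start. The base content was 66.4% G or C in Dlx2 and 68% in both Dlx1 and Msx1, 61.6% in Msx2 and a median of 52.4% over all promoters. The letters TAATTA, which read the same on both strands, occurred once in the Msx2 window and not in the other three, and 4.84% of all promoters hold them. The Dlx2 and Msx1 windows were close in CG number and base content, while only Dlx2 had counts. A link between promoter content and transcript level was not tested.

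Library totals were 25481306 to 29998531 counts in control and 20998149 to 27447679 in Eed cKO, and 14700 genes had enough counts to be tested. In the quasi-likelihood F-test of edgeR, with p-values adjusted over these genes by the Benjamini-Hochberg method (threshold 0.05), 499 genes were higher in Eed cKO (3.39% of those tested) and 120 lower (0.816%). The median log2 fold change of all tested genes was −0.01. Eed itself had 45.1, 41.1 and 53.1 CPM (counts scaled to each library's effective size, its total times the TMM factor) in control and 37.0, 33.7 and 29.2 CPM in Eed cKO. The groups did not overlap, but the log2 fold change of −0.48 ± 0.19 (SE) did not pass the test (edgeR adjusted p = 0.252). The labels do not say which part of Eed was deleted, so reads outside that part can still count. The ribosomal RNA gene Rn45s took 2.18 to 5.24% of counts in control and 6.78 to 7.26% in Eed cKO.

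Of the 8 Dlx and Msx genes, 6 were tested. Dlx1 and Dlx2, the pair on chromosome 2, rose in Eed cKO from a few counts per library. Dlx5 was also higher in every Eed cKO library than in any control library but missed the threshold. Dlx3, the most abundant of the 8 genes, Dlx4 and Msx2 did not pass the test. No gene of the 8 fell by edgeR (0 also at an unadjusted p under 0.05 and 0 by DESeq2 or limma-voom). Dlx6 and Msx1 were too low to test. The 2 of 6 tested genes called higher stand beside 3.39% over all tested genes. Ranges of the groups that did not overlap, with Eed cKO above, occurred for 3 of the 6 and for 11.0% of all tested genes. The median log2 fold change over the 6 tested genes was 1.56. Dlx1 and Dlx2, with at most 6 counts in any control library, had enough counts to be tested only through Eed cKO. The same holds for Dlx5, whose control counts were 10, 99 and 5. These shares and the median thus partly follow from that selection and do not test the family. In bulk RNA, a change in the number of cells that express a gene and a change in RNA per cell cannot be told apart, since fewer cells of a type and less RNA per cell give the same count.

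**Figure D1:**
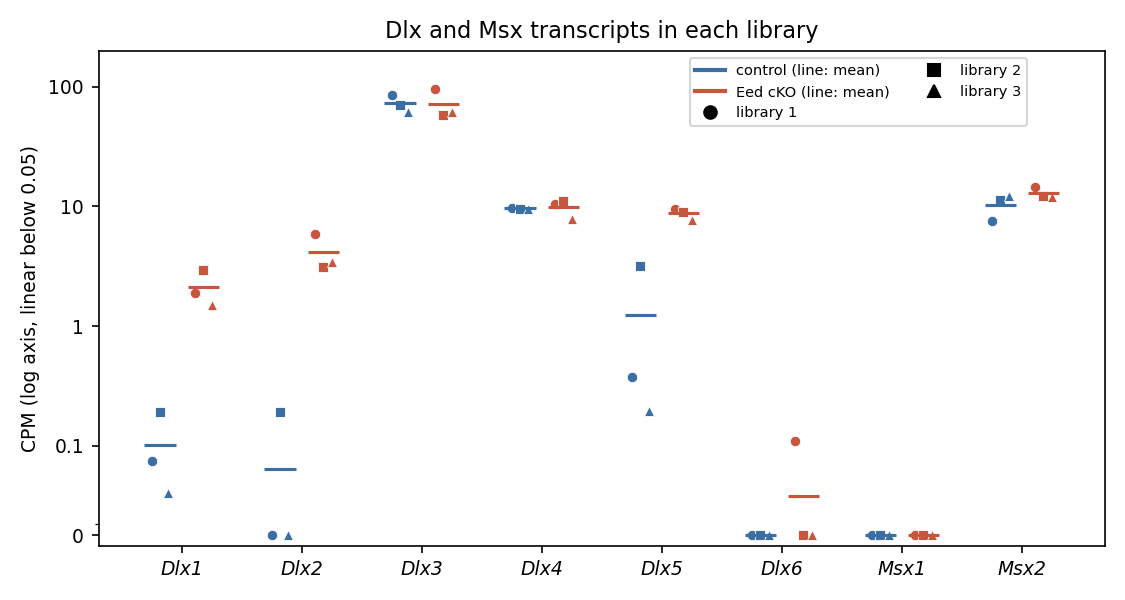
CPM of each Dlx and Msx gene in each library (y axis, logarithmic above 0.05 CPM and linear below), control in blue and Eed cKO in red, with a line at the mean of 3 libraries. Dlx1, Dlx2 and Dlx5 have all 3 Eed cKO points above all 3 control points, while the points of Dlx3 (58.4 to 95.8 CPM) overlap.

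Dlx3 and Dlx4 form a pair on chromosome 11 (GRCm38, GENCODE M21: Dlx3 at 95120119 to 95125296, plus strand; Dlx4 at 95140447 to 95146263, minus strand), with starts 26.1 kb apart. Dlx3 had 86.0, 70.7 and 61.2 CPM in the control libraries and 95.8, 58.4 and 62.0 CPM in the Eed cKO libraries. The ranges overlapped, and Eed cKO held both the highest and the lowest library. The means were 72.6 ± 12.5 CPM (SD, n = 3) and 72.1 ± 20.7 CPM (SD, n = 3). The log2 fold change was −0.01 ± 0.22 (SE), with a 95% interval of −0.48 to 0.45 (edgeR adjusted p = 0.991), and its sign differed between scalings. Dlx4, known from the placenta, had 9.76, 9.59 and 9.53 CPM in control and 10.5, 11.2 and 7.84 CPM in Eed cKO. The 3 control libraries lay within the range of the Eed cKO libraries. Its log2 fold change was 0.03 ± 0.29 (SE), with a 95% interval of −0.60 to 0.66 (edgeR adjusted p = 0.981), and it also changed sign between settings. These intervals leave room for a change of either gene within their bounds. Dlx4 held between 8.03 and 13.2% of the summed length-scaled level of Dlx3 and Dlx4 in all 6 libraries.

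Dlx1 and Dlx2 (GRCm38 chromosome 2, 71528113 to 71533981 on the plus strand and 71543408 to 71546754 on the minus strand) have starts 18.6 kb apart and act together in forebrain interneurons and the jaws. Dlx2 had 0, 6 and 0 counts in the control libraries and 163, 78 and 71 in the Eed cKO libraries, or 0, 0.192 and 0 against 5.94, 3.13 and 3.44 CPM. Every Eed cKO library was far above every control library, and all 6 control counts lay in control 2. Dlx2 rose by a log2 fold change of 5.83 ± 1.03 (SE; edgeR adjusted p = 0.00442), and it passed the threshold in all 14 alternative settings. The ratio of summed counts, scaled for effective library sizes, was 59.6 with a 95% exact interval of 27.1 to 163.5. This interval and those below cover counting error only, since they use summed counts and leave out the spread between libraries. Amplified reads carry no molecular identifiers, so the counting error itself may be larger. Without control 2 the control group had 0 counts, and the fitted log2 value was 9.72, which then depends on the prior count.

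Dlx1 had 2, 6 and 1 counts in control and 52, 74 and 31 in Eed cKO, or 0.0748, 0.192 and 0.0391 against 1.89, 2.97 and 1.501 CPM. The groups did not overlap, and control 2 was again the highest control library. Dlx1 rose by a log2 fold change of 4.29 ± 0.94 (SE), with a 95% interval of 2.28 to 6.29 (edgeR adjusted p = 0.0177). The scaled ratio of summed counts was 19.98 (95% exact interval 10.3 to 44.5). The call was lost with limma-voom (adjusted p = 0.0609). Leaving out single libraries also ended it in edgeR, with adjusted p = 0.0600 for control 1, 0.0820 for control 3, 0.114 for Eed cKO 2 and 0.0516 for Eed cKO 3. Without control 2 the log2 fold change was 5.11. Per kilobase of exon, Dlx1 was the lower gene of the pair in each Eed cKO library, with 14.4, 33.4 and 18.8% of their summed level.

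Dlx5 and Dlx6 (GRCm38 chromosome 6, 6877805 to 6882085 on the minus strand and 6863334 to 6868568 on the plus strand) have starts 18.8 kb apart and act in bone, limb and lower jaw. Dlx5 had 10, 99 and 5 counts in control and 263, 224 and 158 in Eed cKO, or 0.374, 3.16 and 0.195 against 9.58, 8.99 and 7.65 CPM. The groups did not overlap, but control 2 was well above the other two control libraries. The means were 1.24 ± 1.66 CPM (SD, n = 3) and 8.74 ± 0.991 CPM (SD, n = 3). The log2 fold change was 2.79 ± 0.76 (SE; 95% interval 1.17 to 4.41), and Dlx5 missed the threshold (edgeR adjusted p = 0.0556). Without control 2 it was 4.93 (edgeR adjusted p = 0.00031), and Dlx5 also passed with DESeq2 (adjusted p = 0.00141), limma-voom (0.0141) and edgeR with no filter on low counts (0.000142). The scaled ratio of summed counts was 6.48 (95% exact interval 5.30 to 7.98). Its partner Dlx6 had 3 counts in Eed cKO 1 and 0 in the other five libraries. A count of 0 allows up to 3 counts, or 0.0959 to 0.145 CPM depending on the library, so Dlx6 was not above this limit in any library.

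Msx2 (GRCm38 chromosome 13, 53466884 to 53473074, minus strand), which acts in the skull and the hair follicle, had 7.56, 11.2 and 12.1 CPM in control and 14.5, 12.2 and 12.1 CPM in Eed cKO. The groups overlapped, with control 1 lowest and Eed cKO 1 highest. The means were 10.3 ± 2.43 CPM (SD, n = 3) and 12.9 ± 1.38 CPM (SD, n = 3). The log2 fold change of 0.32 ± 0.29 (SE; 95% interval −0.29 to 0.94) did not pass the test (edgeR adjusted p = 0.696). Msx1 (GRCm38 chromosome 5, 37820485 to 37824583, minus strand), which acts in tooth and palate, had 0 counts in all 6 libraries. Msx1 was thus not detectable at this depth, with the same limit of 3 counts per library.

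**Figure D2:**
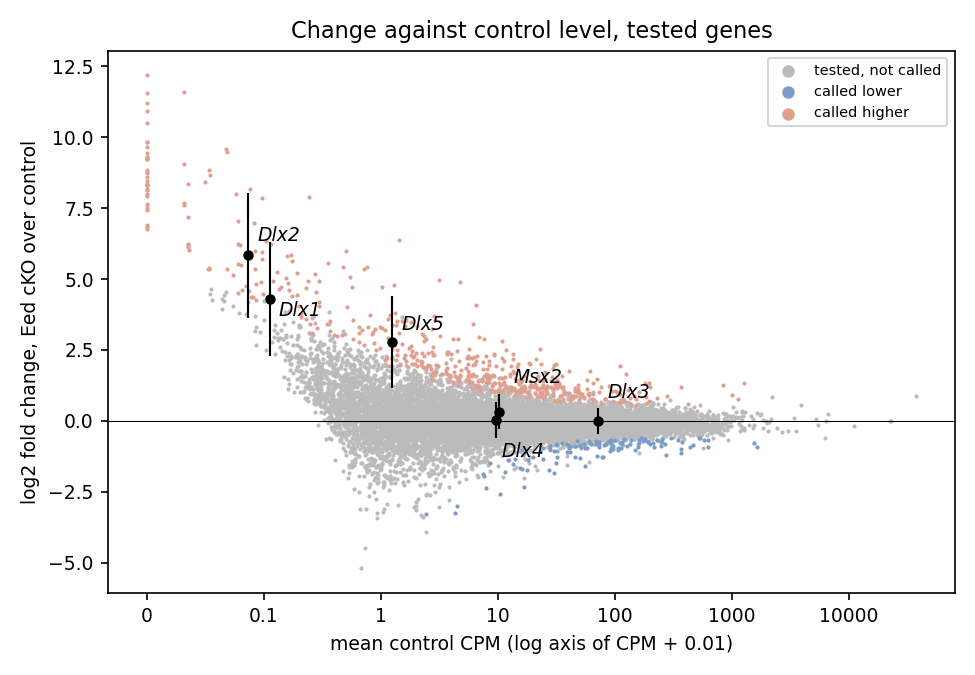
Log2 fold change of Eed cKO over control (y axis) against mean control CPM (x axis, logarithmic after adding 0.01) for the 14700 tested genes, with the 6 tested Dlx and Msx genes in black with 95% intervals. Dlx1, Dlx2 and Dlx5 lie at the low end of control level, and Dlx3, Dlx4 and Msx2 lie near 0 on the y axis.

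Scaled for length as CPM per kilobase of merged exons (RPKM), the control order was Dlx3 (27.9 ± 4.81 RPKM), Msx2 (3.14 ± 0.740), Dlx4 (2.94 ± 0.0374), Dlx5 (0.550 ± 0.736), Dlx2 (0.0224 ± 0.0388) and Dlx1 (0.0189 ± 0.0148; each mean ± SD, n = 3). The ranges of Msx2 and Dlx4 overlapped, as did those of Dlx2 and Dlx1, while Dlx5 (0.0863 to 1.40 RPKM) lay above every control value of Dlx2 and Dlx1. In Eed cKO the order was Dlx3 (27.6 ± 7.92 RPKM), Msx2 (3.94 ± 0.422), Dlx5 (3.86 ± 0.438), Dlx4 (3.01 ± 0.537), Dlx2 (1.46 ± 0.540) and Dlx1 (0.393 ± 0.141). Dlx5 thus lay at the level of Msx2, within its spread. Dlx3 remained the highest of the 8 genes in every library.

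The share of Dlx3 in the summed RPKM of the 6 Dlx genes was 91.2, 85.9 and 88.6% in control and 78.7, 71.3 and 76.6% in Eed cKO. All 3 Eed cKO values were below all 3 control values, with means of 88.6 ± 2.65% and 75.5 ± 3.85% (SD, n = 3). The share of Dlx5 had means of 1.74 ± 2.33% and 10.9 ± 1.78%. Dlx2 went from a mean of 0.0710% to 3.94%, and Dlx1 from 0.0594% to 1.13%. The summed Dlx level was 31.4 ± 4.85 RPKM in control and 36.4 ± 8.92 RPKM in Eed cKO, a difference smaller than the spread. With the longest coding transcript as the length, the mean share of Dlx3 was 84.3% and 68.1%.

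**Figure D3:**
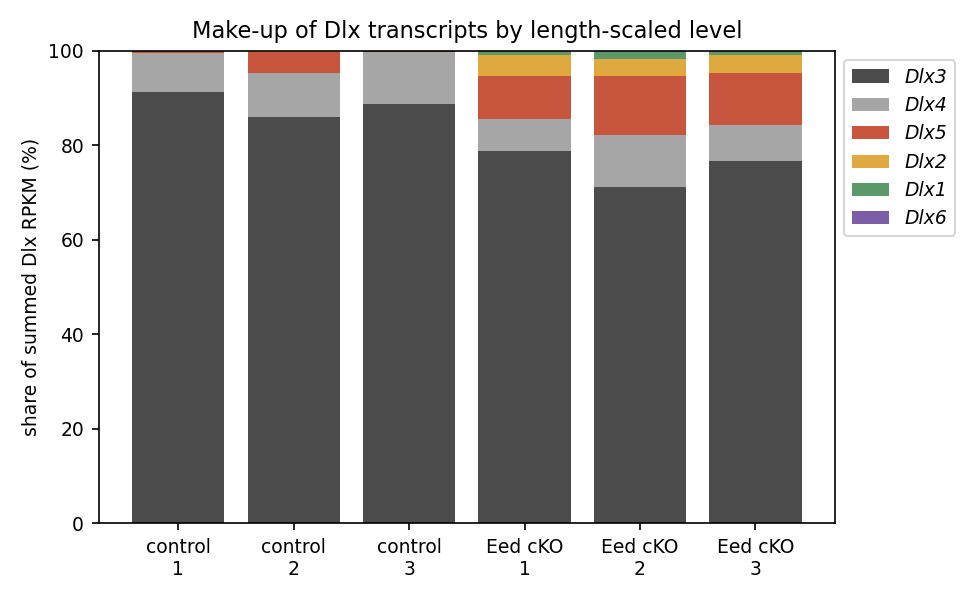
Share of each Dlx gene in the summed Dlx RPKM (y axis, percent) in each library (x axis). Dlx3 takes 85.9 to 91.2% in control and 71.3 to 78.7% in Eed cKO, and the Dlx5 band is widest in the Eed cKO libraries.

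Each paralog was also set against Dlx3 inside each library, as the log2 ratio of counts per kilobase after adding 1 count, so that library scaling cancels. Dlx2 had ratios to Dlx3 of −11.30, −8.44 and −10.75 in control and −4.13, −4.33 and −4.28 in Eed cKO. The ratio of Dlx5 to Dlx3 was −7.50, −4.26 and −7.83 in control and −3.11, −2.49 and −2.81 in Eed cKO. Neither ratio overlapped between the groups. Dlx2 had 0 counts in control 1 and control 3, so its ratios there rest on the added count. The difference in mean log2 ratio, Eed cKO minus control, was 5.91 for Dlx2, 4.09 for Dlx1 and 3.73 for Dlx5, each with an exact two-sided permutation p of 0.1, the smallest that 3 against 3 libraries can give. It was 0.05 for Dlx4 (exact permutation p = 1). The size of the difference depended on the added count. With 0.5 counts added it was 6.60 for Dlx2, 4.335 for Dlx1 and 3.79 for Dlx5. With 5 counts added it was 4.20, 3.05 and 3.34. Since 0.1 is the smallest possible p, none of the 4 ratios could reach 0.05 in this design.

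Of the antisense genes at these loci in the files, Dlx4os had a level of several CPM and the others had few counts or none. Dlx1as had 0 counts in control and 3, 8 and 10 in Eed cKO, so it was at least 8.02-fold higher against a limit of 3 counts over the control group. It shares 335 of the 5396 exonic bases of Dlx1 on the other strand, and without a stated strand setting reads there cannot be told apart. Dlx6os1 had 22 counts in Eed cKO 2 and 0 elsewhere. Dlx6os2 had no count. Dlx4os was at 9.35, 5.91 and 10.2 CPM in control and 5.46, 11.6 and 6.24 CPM in Eed cKO, with overlapping groups (log2 fold change −0.12 ± 0.38, edgeR adjusted p = 0.942). Msx1os had 2 counts in each group.

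Beside the 8 genes themselves, 27 genes of the files, antisense genes included, start within 200 kb of a Dlx or Msx start, and 16 of them were tested. None was called in either direction by edgeR, against 1 higher and 1 lower at an unadjusted p under 0.05, 1 higher by DESeq2 and 0 by limma-voom. With 3.39% called higher and 0.816% lower over all tested genes, a count of 0 among 16 is close to these shares. The median log2 fold change of the 16 was 0.14. Leaving aside the antisense genes, the nearest tested gene on each side of a locus that has one was taken. Log2 fold changes were 0.10 (Metap1d, 74.8 kb from Dlx1 on its far side from Dlx2), 0.18 (Itga6, the α6-integrin of the sort, 198.9 kb from Dlx2 on the other side), −0.28 (Itga3, 43.3 kb from Dlx3), 0.41 (Sdhaf3, 73.9 kb from Dlx5) and 0.29 (Sptlc1, 95.7 kb from Msx2). None of these 5 passed the test. Tac4, on the other side of the Dlx3 and Dlx4 pair, had the lowest value, −0.84. The highest value was 3.88 ± 1.11 (SE) for Ror2, a receptor for Wnt5a that starts 186.9 kb from Msx2 (edgeR adjusted p = 0.0716). Like Dlx1, Dlx2 and Dlx5, Ror2 had enough counts to be tested only through Eed cKO. Ror2 had a mean of 0.154 ± 0.203 CPM in control (SD, n = 3) and 0.947, 2.21 and 4.07 CPM in Eed cKO, and it passed with DESeq2 (adjusted p = 0.00250), with no filter (edgeR, 0.00737) and without control 2 (edgeR, 0.0326).

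**Figure D4:**
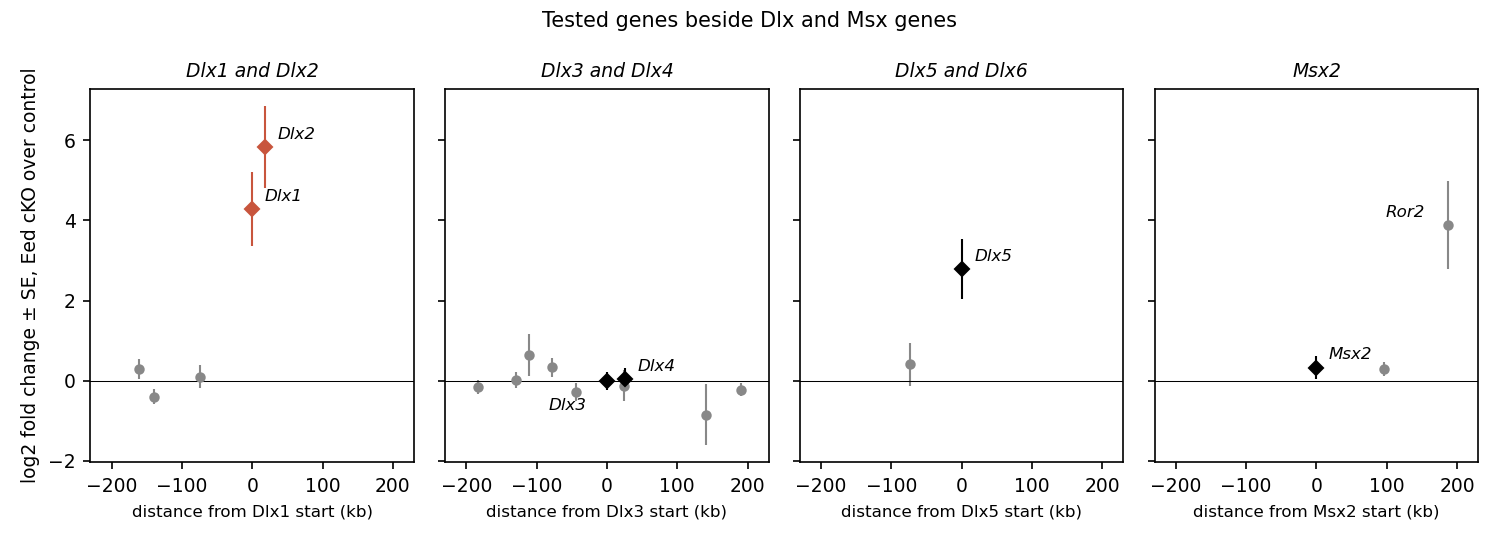
Log2 fold change of Eed cKO over control with SE (y axis) for tested genes by distance of their start from a Dlx or Msx start (x axis, kb, positive along the direction of transcription). Diamonds are Dlx and Msx genes, red where called higher. Dlx1 and Dlx2 stand above the grey neighbours, and Ror2 is the highest neighbour at 3.88.

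Among 40 other NKL homeobox genes in the files, 9 were tested and 5 rose, beside 3.39% of all tested genes called higher. The median log2 fold change of the 9 was 4.65 (4.59 with genes at 0 in control set to their bound), beside −0.01 over all tested genes. The other 31 were too low to test and 7 had no count. All 5 called genes averaged at most 0.147 CPM in control and had enough counts to be tested only through Eed cKO. The 5 of 9 and the median thus partly follow from that selection. Emx2, a forebrain and urogenital regulator, rose from 0.147 ± 0.122 to 8.70 ± 1.19 CPM (SD, n = 3; log2 fold change 5.80, edgeR adjusted p = 7.91e-05). Vax2, of the ventral eye, had 0 counts in control and rose at least 92.0-fold, to 3.30 ± 0.273 CPM (SD, n = 3). Nkx2-9, also at 0 in control, had 5.54, 0.642 and 0.387 CPM in the Eed cKO libraries and was at least 67.2-fold higher. Nkx6-1, of pancreas and spinal cord, was at least 24.1-fold higher but lost its call without any 1 library (edgeR adjusted p up to 0.0907). The fifth, En1, was named after its value was seen. Its mean went from 0.124 to 3.30 CPM, and leaving out control 3, Eed cKO 1 or Eed cKO 2 ended its call (adjusted p up to 0.129 by edgeR), as did limma-voom (0.112).

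Of 17 genes that act upstream of Dlx and Msx genes in other tissues, such as BMP ligands, receptors and Smads, 15 were tested. Of these, 1 rose and none fell, beside 3.39% higher and 0.816% lower over all tested genes. At an unadjusted p under 0.05, 2 were higher and 3 lower, and DESeq2 called 1 higher and 0 lower. Bmp4, a BMP ligand and inducer of Msx genes, went from 9.09 ± 0.951 to 22.3 ± 5.53 CPM (SD, n = 3; log2 fold change 1.29, edgeR adjusted p = 0.0120). This call was lost without control 3 (edgeR adjusted p = 0.0652) or Eed cKO 3 (0.0833). The median log2 fold change of the 15 was 0.05. Of 8 protein partners, 7 were tested and none was called (unadjusted 0 higher and 1 lower, DESeq2 0 and 1, limma-voom 0 and 0), with a median of −0.08.

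Genes that Dlx factors act on elsewhere were taken by tissue. None of 4 forebrain genes reached the filter. Their summed level was 0 to 0.0639 CPM in control and 0.146 to 0.602 CPM in Eed cKO, without overlap. These sums rest on few counts, at most 9 for any of these genes over the Eed cKO group. Of 5 bone genes, 1 was tested and not called (unadjusted 1 higher, DESeq2 0, limma-voom 1). Of 6 hair and epidermis genes, 6 were tested, 2 rose and none fell, beside 3.39% higher and 0.816% lower over all tested genes. Hoxc13, a hair shaft regulator, rose from 1.20 ± 0.676 to 15.8 ± 4.31 CPM (SD, n = 3; log2 fold change 3.73, edgeR adjusted p = 0.000412). Krt10, a keratin of differentiating epidermis, rose from 847 ± 96.0 to 2018 ± 441 CPM (SD, n = 3; log2 fold change 1.25, edgeR adjusted p = 0.00126). The median of the 6 was 0.88.

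Markers of the sorted cells were high in every library. The summed level of 9 basal epidermal genes was 35798 to 42451 CPM in control and 30572 to 40299 CPM in Eed cKO. Krt5, Krt14, Trp63, Ly6a (which encodes Sca1) and Itga6 were not called. Epcam rose from 82.1 ± 20.4 to 139.7 ± 17.4 CPM (SD, n = 3; log2 fold change 0.77, adjusted p = 0.0433 by edgeR). Its call ended when control 1, control 3, Eed cKO 2 or Eed cKO 3 was left out (adjusted p up to 0.171 by edgeR). Of 6 Merkel cell genes, 4 were tested, 2 rose and none fell, beside 3.39% higher and 0.816% lower over all tested genes. The summed level of the 6 was 0.195 to 1.82 CPM in control and 7.75 to 14.1 CPM in Eed cKO. Sox2 had 0 counts in control and 6.74, 0.883 and 1.501 CPM in Eed cKO, so it rose at least 90.9-fold over the group, and Eed cKO 1 held most of its counts. Without Eed cKO 1 its fitted log2 value was 7.95 in place of 9.32, still past the threshold (edgeR adjusted p = 0.0332). Isl1, also at 0 in control, had 4.92, 2.93 and 1.26 CPM in Eed cKO and rose at least 89.3-fold. Sox2 and Isl1 thus had enough counts to be tested only through Eed cKO, and so did Krt8 and Krt18. The 2 of 4 partly follow from that selection. Krt8 and Krt18 were not called, and Krt8 overlapped between the groups, with control 2 at 1.25 CPM above all 3 Eed cKO libraries (1.06 to 1.21 CPM). Atoh1 (0 counts in control, 40 in Eed cKO) and Krt20 (2 and 24) were not tested. The part of these genes in the rise of the Dlx genes was not tested. The hair follicle list summed to 716 to 912 CPM in control and 668 to 756 CPM in Eed cKO, with Hoxc13 higher and Krt71 lower (7.93 to 1.54 CPM, edgeR adjusted p = 0.0495, lost in 7 of 14 alternative settings).

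Over 7 lists for fibroblasts, dermal papilla, melanocytes, immune cells, endothelium, neurons and glia, and muscle, 29 of 39 genes were tested and none was called (unadjusted 2 higher and 2 lower, DESeq2 0 and 1, limma-voom 0 and 0). Over all tested genes, 3.39% were called higher and 0.816% lower, so a count of 0 among 29 is close to these shares. The fibroblast sum was 388 to 583 CPM in control and 570 to 653 CPM in Eed cKO. These ranges overlapped, as did those of the other lists: 4.84 to 7.67 and 5.18 to 11.2 CPM for dermal papilla, 9.02 to 25.6 and 11.1 to 20.5 CPM for melanocytes, 99.4 to 377 and 44.3 to 279 CPM for immune cells. Endothelial sums were 4.92 to 33.9 and 5.94 to 32.4 CPM, neuron and glia sums 2.02 to 3.94 and 2.62 to 11.2 CPM, and muscle sums 0.312 to 1.53 and 0.0729 to 2.76 CPM. Control 2, the control library with the most Dlx1, Dlx2 and Dlx5, also had the highest Merkel (1.82 CPM), hair follicle (912 CPM), fibroblast (583 CPM), dermal papilla (7.67 CPM) and muscle (1.53 CPM) sums of the control group. It had the lowest immune (99.4 CPM) and endothelial (4.92 CPM) sums and the lowest Rn45s share (2.18%) of that group. Their part in its Dlx counts was not tested.

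The genes whose centred log2 CPM followed a Dlx gene most closely over the 6 libraries were found by the root mean square difference over 14700 genes. For Dlx3 they were Nsun5 (0.0513) and Mycbp (0.0663), neither of which was called. For Dlx2 they were Emx2 (0.293) and Krt7 (0.320), a keratin of simple epithelia that went from 3.15 ± 1.88 to 100.1 ± 21.4 CPM (SD, n = 3). For Dlx1 they were Gm53 (0.283), from 1.36 to 15.8 CPM, and Cdkn2b (0.343), a cell cycle inhibitor, from 0.569 to 6.71 CPM. These 4 genes near Dlx1 and Dlx2 were called higher by edgeR. The measure is a description over 6 libraries that share the group difference.

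**Figure D5:**
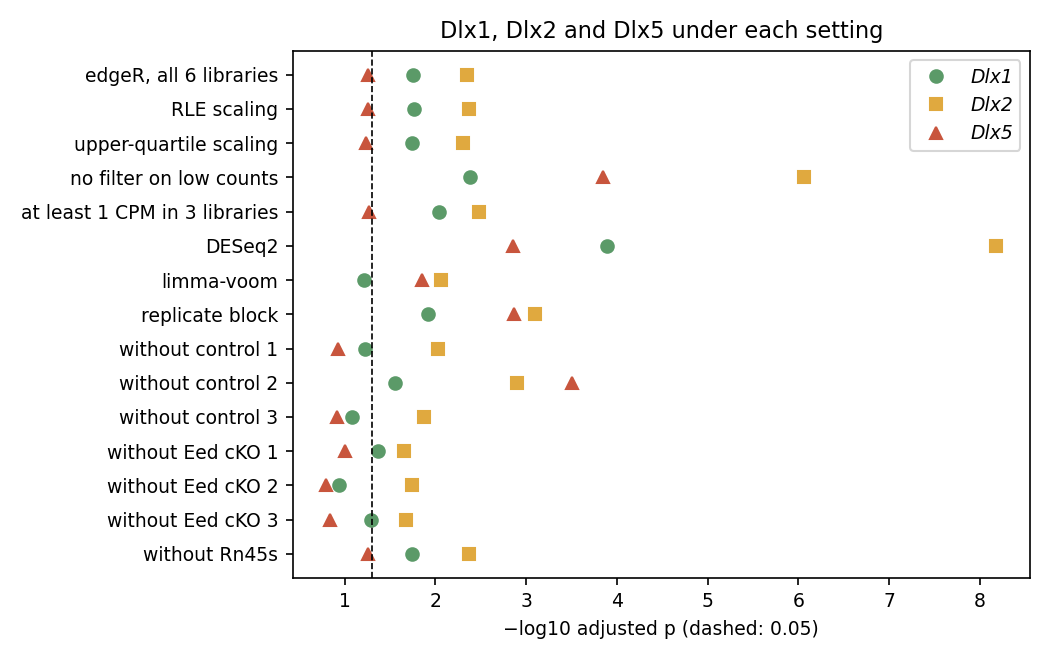
Adjusted p of Dlx1, Dlx2 and Dlx5 as −log10 (x axis, dashed line at 0.05) under each setting (y axis). Dlx2 lies right of the line in every setting, while Dlx1 and Dlx5 fall on either side of it.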

How the data were processed

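Sorted epidermal RNA was sequenced in 6 libraries. Per the labels, 10 ng of total RNA was amplified and sequenced as 100-nucleotide single reads. The deposited values are raw counts by gene symbol, in a table for each library. Per the submitters' processing notes, the tools were HTSeq 0.6.1, Cufflinks 2.2.1, DESeq2 1.6.3 and TopHat2 2.0.13, without roles, on build mm10. Annotation, strand setting and filters: not given in the sources used here. Amplification and total counts of 20998149 to 29998531 per library limit the precision of low genes.

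From the counts, 14700 genes passed filterByExpr (9753 removed, 4791 of them without a count). The test was edgeR 4.0.16 (quasi-likelihood F-test, TMM, Benjamini-Hochberg, threshold 0.05, genotype as the only term). Alternatives were DESeq2 1.42.0, limma-voom (limma 3.58.1), scaling by upper quartile or RLE, no filter, a minimum of 1 CPM in 3 libraries, the replicate number as a block, and each library left out. 2 were chosen after seeing the data: counts without Rn45s, and the longest coding transcript as the length. RPKM used merged exon lengths from GENCODE M21 (GRCm38). Ratios of summed counts have exact 95% intervals, and a gene at 0 in control was set at 3 counts over the control group. The edgeR code was tested on simulated counts, and the other code was not. The software was R 4.3.3 and Python 3.11.15.

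No pair of libraries agreed within sampling noise. Genes were named by rule: the 8 members, Eed, their antisense genes, called or nearest neighbours, the genes called in each list (the 4 with the smallest p where more were called), the 2 most alike genes per called member and for Dlx3, and 6 basal markers. The members and lists were chosen with earlier results of these data known. Lists cover upstream inputs, protein partners, targets by tissue, other NKL genes and cell type markers. The result of the jaw and limb target list is not reported here. Tac4 and Ror2 were also named for the extreme values among neighbours.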

Additional observations from a re-analysis of the deposited data

How the results depend on the processing

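Over all genes, the count called higher was 499, against 811 with DESeq2 and 302 to 456 when each library was left out. The count called lower was 120, against 257 with no filter on low counts, 273 with DESeq2, 269 with the replicate block and 35 to 118 when each library was left out. Of the Dlx and Msx genes, 1 to 3 were called higher when each library was left out, and none was called lower in any of the 14 alternatives. Of the neighbours, 1 (Ror2) was called with no filter, with DESeq2 and with the replicate block, and 0 to 1 without 1 library. Of the gene lists together, cell type markers not included, 9 genes were called higher and 0 lower, against 15 with no filter and 17 with DESeq2, and 6 to 11 without 1 library; 1 gene of them was called lower with no filter, with DESeq2 and with the replicate block. The causes were not tested. Added after seeing the data, the longest coding transcript moved the share of Dlx3 to 84.3% in control and 68.1% in Eed cKO, because lengths changed.

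Dlx2 kept its call in 14 of 14 alternatives (log2 fold change 5.30 to 9.72), Dlx1 in 9 of 14 (3.93 to 5.11). Dlx5 gained a call in 5 of 14 (2.29 to 4.93). Dlx3 ranged from −0.27 to 0.13, Dlx4 from −0.06 to 0.17 and Msx2 from 0.14 to 0.46, without a call. Replicate numbers occur in both groups, and the labels do not say whether they pair libraries. Same-numbered libraries had correlations of deviations of 0.23, 0.108 and −0.00138, and differently numbered ones had −0.185 to 0.0994. With 3 libraries per group, these values cannot decide whether the numbers pair libraries. With the replicate block, 675 genes were higher, and Dlx5 (edgeR adjusted p = 0.00136) and Ror2 (0.0226) passed. At this depth, Dlx6 and Msx1 could not be tested.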

Other observations

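Of the NKL homeobox genes too low for the filter, 4 were picked after their values were seen, with no test. Tlx1, of spleen and hindbrain, had 9 counts over the control group, all of them in control 1, and 156 over the Eed cKO group. Its levels were 0.337, 0 and 0 CPM against 2.51, 3.29 and 0.242 CPM, so the groups overlapped. Hmx1, of the eye and ear, had 0 counts in control and 0.838, 0.923 and 0.290 CPM in the Eed cKO libraries, which over the group was at least 19.9-fold higher. Msx3, the dorsal neural tube member of the Msx family, had 11 and 34 counts, with overlapping levels of 0.374, 0.0320 and 0 CPM in control and 0.510, 0.803 and 0 CPM in Eed cKO. Barhl1, of the cerebellum and inner ear, had 48 counts in control (0.374, 0.128 and 1.33 CPM) and 4 in Eed cKO, all in Eed cKO 2 (0.161 CPM), and its groups also overlapped.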
